A study of Arabidopsis thaliana with 75 samples.

Results

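The xyloglucan endotransglucosylase/hydrolase (XTH) and expansin genes were followed in Arabidopsis thaliana leaves after a cut with a blade. The families were represented by 48 genes of the 32833 in the deposited table, chosen by gene identifier as members of these families: 24 XTH genes, 18 alpha-expansins (EXPA), 2 beta-expansins (EXPB), 3 expansin-like A genes (EXLA) and 1 expansin-like B gene (EXLB1). Messenger RNA came from the eighth leaf of plants aged 4 weeks, and every group, 0h included, was labelled as wounded. Wild type (WT) leaves were collected at 0h, 1h, 2h, 4h, 6h, 12h and 18h and on days 1 to 5 (1D to 5D) after wounding. A line labelled gpat4 gpat8, named for a pair of acyltransferase genes of cutin synthesis, was sampled at 0h, 2h, 4h and 12h and on days 1, 2 and 3. Leaves labelled rbohE, named for a gene of an NADPH oxidase that makes reactive oxygen species, were taken at 0h, 2h and 4h and on days 1, 3 and 5. Each of the 25 groups had 3 libraries, 75 in all. The labels gave no allele for either mutant and did not say whether the libraries of a group came from separate plants, so p-values measure the spread between these libraries.

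Xyloglucan is the hemicellulose that coats and tethers cellulose in the primary wall of most flowering plants. XTH enzymes cut a xyloglucan chain and join the cut end to another chain, or in a few members to water, which remodels the tethers without dissolving the wall. Expansins loosen the contacts between wall polymers at acid pH without cutting them, and alpha-expansins are best known from expanding cells of roots, hypocotyls and young leaves. The expansin-like proteins share the fold of expansins, and no wall loosening activity is established for them. In cut Arabidopsis flowering stems, XTH19 and XTH20 are known to act downstream of the transcription factor ANAC071 in the rejoining of tissue.

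A library held between 46045188 and 67376782 counts (median 61143105), of which the 48 genes made up 0.0585% to 0.203%. Levels are in CPM, the count of a gene in a library scaled to a common total (counts-per-million), and a gene was called when its adjusted p in edgeR's quasi-likelihood test was under 0.05 and its log2 fold change was at least 1 in size. The mutant labels were checked on their own genes. At 2h GPAT4 stood at 84.4 ± 4.94 CPM under the gpat4 gpat8 label and 252 ± 9.01 in WT (mean ± SD, n = 3). It was called lower at 2h, 4h and 3D and was not called at 0h, 12h, 1D and 2D, when its log2 difference lay between −0.72 and −0.20. GPAT8 went against the label and was called higher at 4h, 12h, 1D, 2D and 3D, for example at 21.6 ± 1.55 CPM against 10.4 ± 1.36 at 4h. RBOHE was called lower in the libraries labelled rbohE at 3D (2.73 ± 0.131 CPM against 45.7 ± 3.67) and 5D. It was not called at 1D and was called higher at 0h, 2h and 4h, at a low level at 0h (0.736 ± 0.291 CPM against 0.197 ± 0.0322). At 0h, 12h and 1D the descriptions under the gpat4 gpat8 label carried an M, and these libraries had a plastid share of 0.943% to 2.57% of counts, against 0.212% to 0.878% elsewhere, so that genotype and library series cannot be told apart at those times. Summed mesophyll markers ran from 1013 to 9592 CPM over the libraries. Guard cell markers ran from 35.6 to 370 CPM and markers of dividing cells from 0.624 to 29.5 CPM. RHD6, a defining gene of root hairs, was at 0 in every library. Of the 3 root hair markers 1 was tested, and against 0h it was called higher in WT at 1h and 2h. Under the rbohE label the same marker was called higher at 2h and 4h. Summed root hair markers stood at 1.31 to 2.29 CPM in WT at 1h and at 0 to 0.0458 CPM at 0h. No leaf without a wound was analysed here at the later times, so time after wounding cannot be told apart from time of day. The WT 0h libraries, to which 11 comparisons refer, differed among themselves for several members, and a called fold change that 1 library moved by over 1.5 times is given with and without it.

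The promoters of 4 genes that rose within an hour are shown first, 3 with a motif of fast stress responses and 1 without it, since the earliest responders are described beside them. Promoters were searched from 250 bases before to 50 bases after the annotated start for CGCGTT, the core of the rapid stress response element, on both strands. The motif was found in 6 of the 48 family promoters (XTH18, XTH20, EXPA6, EXPA12, EXLA1 and EXLA3) and in 3.4% of all 27443 promoters searched. Of these 6 genes, XTH18, EXPA12, EXLA1 and EXLA3 were called higher at 1h, EXPA6 was called lower and XTH20 was at 0 counts. A further 7 members called higher at 1h had no match, XTH22 among them. The G-box CACGTG was in 0 of the 48 family promoters and in 7.68% of all promoters, and the auxin response element TGTCTC was in 6 and in 14.2%, and no matches of different motifs overlapped in the family promoters. A match is a description of letters in this window and not evidence of a bound factor. The 160 bases directly upstream of the start are printed 5′ to 3′ on the gene's own strand, from the RefSeq TAIR10.1 genome, with each AACGCG, the reverse complement of CGCGTT, in capitals.
XTH18 (chr4:14827212-14827371, minus strand): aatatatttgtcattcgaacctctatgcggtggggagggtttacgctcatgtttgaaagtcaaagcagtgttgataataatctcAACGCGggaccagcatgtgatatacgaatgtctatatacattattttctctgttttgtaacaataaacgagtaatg
EXLA1 (chr3:16896006-16896165, plus strand): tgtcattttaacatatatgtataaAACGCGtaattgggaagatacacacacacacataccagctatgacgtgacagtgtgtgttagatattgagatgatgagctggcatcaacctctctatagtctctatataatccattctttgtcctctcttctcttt
EXLA3 (chr3:16892542-16892701, plus strand): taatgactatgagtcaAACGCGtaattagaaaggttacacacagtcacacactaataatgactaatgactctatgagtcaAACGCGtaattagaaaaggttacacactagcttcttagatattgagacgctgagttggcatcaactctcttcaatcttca
XTH22 (chr5:23308681-23308840, minus strand): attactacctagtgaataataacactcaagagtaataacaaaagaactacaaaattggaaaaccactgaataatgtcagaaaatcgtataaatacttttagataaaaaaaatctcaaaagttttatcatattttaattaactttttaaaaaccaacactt
The EXLA3 stretch held 2 matches inside a run of 26 bases that occurs at both places, ctatgagtcaAACGCGtaattagaaa, whereas the stretches of XTH18 and EXLA1 held 1 match each and that of XTH22 held 0.

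In wounded wild type leaves members of both families rose and others fell at every time, and the rising members differed in when they were highest. Of the 48 genes, 42 had enough counts to be tested (20 XTH, 16 EXPA and the 6 of the smaller groups), and the counts that follow describe those 42. Each count is given beside the share of all tested genes called in either direction. At 1h, 11 members were called higher than at 0h and 13 lower, beside 33.6% of all tested genes, and at 2h the counts were 14 and 15, beside 38.2%. At 4h they were 10 and 13 (27.0% of all genes), followed by 10 and 11 after 6h (18.5%), 12 and 9 after 12h (16.5%) and 10 and 13 after 18h (16.5%). Day 1 had 11 higher and 10 lower members (17.6%), day 2 had 14 and 12 (19.4%), day 3 had 12 and 15 (17.9%), day 4 had 10 and 16 (17.3%) and day 5 had 7 and 20 (19.2%). The share of tested members called was 57.1% at 1h, 69.0% at 2h and 64.3% at 5D. The median log2 fold change of the tested members lay between −0.48 at 1h and 0.35 at 12h up to 4D and reached −0.92 at 5D, beside medians of all tested genes between −0.10 and 0.01.

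Over the 11 times, 11 members were called higher at 1 or more times and never lower, 17 were called lower and never higher, and 14 moved in both directions. XTH19 and XTH23 were called higher at all 11 times, and XTH6 and XTH7 were called lower at all 11. The highest wild type mean fell at 0h for 8 tested members, at 1h for 8, at 2h for 6 and at 2D for 7, and each other time held at most 3. These patterns and peak times were not counted over all tested genes, so they cannot be called particular to the families. All 11 comparisons share the same WT 0h libraries and are not separate results. Among XTH genes the calls ran from 4 higher and 7 lower of 20 at 12h to 4 higher and 12 lower at 5D, where 16.5% and 19.2% of all tested genes were called. Among the 16 alpha-expansins the calls were most at 2h (6 higher and 6 lower) and fewest at 1D (3 and 1), beside 38.2% and 17.6% of all tested genes. They were 3 higher and 6 lower at 1h, 5 and 1 at 12h, and 1 and 6 at 5D, beside 33.6%, 16.5% and 19.2%.

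**Figure D1:**
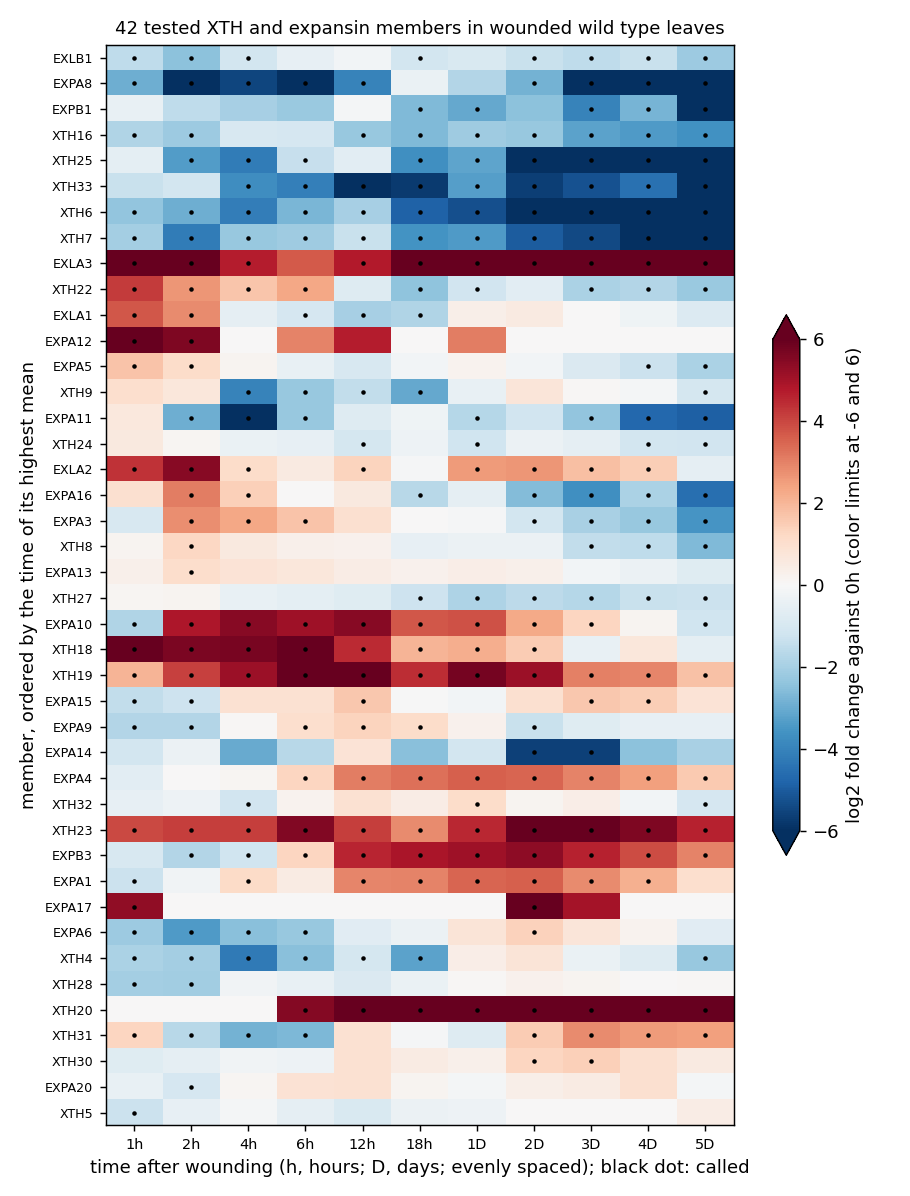
Log2 fold change of the 42 tested members (vertical axis, ordered by the time of the highest wild type mean) at each time after wounding against 0h (horizontal axis, evenly spaced), with a black dot where a member was called. The members at the top, such as XTH6 and XTH7, lie below 0 at every time, and the band of highest values moves from 1h (XTH22, EXLA1) to 2D (XTH23, EXPA1, EXPB3) going down.

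At 0h the most abundant members per kilobase of transcript were XTH24 at 195 CPM per kb, XTH6 at 130, XTH27 at 129, EXLB1 at 55.3, XTH28 at 44.5 and XTH7 at 42.5. The first 3 were all XTH genes, and the most abundant alpha-expansin at 0h, EXPA6, stood at 18.1 CPM per kb. At their highest wild type means the order was different, with XTH24 at 294 CPM per kb, XTH22 at 243, EXPA10 at 239, EXPA1 at 213 and EXPA4 at 205. Neighbours in these orders were not tested against each other.

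XTH22 (AT5G57560), long known as the touch-inducible gene TCH4, and its relative XTH18 (AT4G30280) were at their first high level within an hour. XTH22 stood at 12.7, 8.52 and 41.2 CPM in the 3 WT libraries at 0h and at 410, 402 and 349 CPM at 1h, with 157, 133 and 104 CPM at 2h and 113, 113 and 89.3 CPM at 6h. All libraries from 1h to 6h lay above all at 0h, and the third 0h library was the highest of its group. The rise at 1h was 4.21 ± 0.52 on the log2 scale (log2 fold change ± SE; adjusted p = 4.15e-10), and 5.18 without WT 0h replicate 3. By 18h XTH22 was below its 0h level, at 2.81, 3.31 and 5.69 CPM (log2 fold change −2.40 ± 0.50, adjusted p = 7.06e-05), a change of −1.43 without WT 0h replicate 3.

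XTH18 had 2 high points. It stood at 0.229, 0.158 and 1.12 CPM at 0h, at 106, 83 and 92.8 CPM at 1h, at 24, 31 and 21.9 CPM at 2h, and again at 108, 111 and 83.2 CPM at 6h. The 2h libraries lay below all of those at 1h and at 6h. The rise was 7.52 ± 0.51 at 1h (adjusted p = 5.34e-19) and 7.62 ± 0.51 at 6h (adjusted p = 2.27e-18). Without WT 0h replicate 3 these values were 8.88 and 8.98. By 3D the level was 0.269, 0.38 and 0.49 CPM, within the range of 0h. XTH18 shares 90.7% of its bases with XTH17 over 97.0% of the transcript, and XTH17 itself never exceeded a mean of 0.0364 CPM in WT. Reads that fit both genes could be assigned to either.

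The 3 expansin-like A genes rose together at 1h and 2h. EXLA1 (AT3G45970) stood at 12.6, 8.71 and 4.46 CPM at 0h, at 109, 122 and 112 CPM at 1h and at 71.5, 65.5 and 47.6 CPM at 2h, and its 1h rise was 3.73 ± 0.34 on the log2 scale (adjusted p = 2.06e-14). It then fell below 0h, to 1.78, 2.33 and 2.47 CPM at 12h (−1.97 ± 0.34, adjusted p = 2.06e-06). EXLA2 (AT4G38400) followed a little later, from 0.611, 0.335 and 0.28 CPM at 0h to 20.7, 18.4 and 15.9 CPM at 2h, a rise of 5.46 ± 0.47 (adjusted p = 1.67e-15). EXLA3 (AT3G45960) had 0 counts in all 0h libraries and stood at 1.18, 1.42 and 1.29 CPM at 1h, at least 8.33-fold higher than the floor of 3 fragments per library. EXLA1 and EXLA2 share 84.2% of their bases, and EXLA1 overlaps AT3G45980 on the other strand; whether counting used the strand is not given in the sources used here.

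Other members called higher at 1h were smaller in level or change. EXPA12 (AT3G15370) went from 0 counts at 0h to 0.686, 0.276 and 0.43 CPM at 1h, at least 2.98-fold above the floor. EXPA5 (AT3G29030), an alpha-expansin known as a brassinosteroid-responsive growth gene, rose from a mean of 6.23 to 20.1 CPM (1.69 ± 0.30, adjusted p = 2.12e-06) and was lower at 5D, at 1.66 CPM (−1.92 ± 0.32, adjusted p = 1.02e-06). Without WT 0h replicate 3 these changes were 2.38 and −1.23.

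A second wave of alpha-expansins began at 2h. EXPA10 (AT1G26770), known from the growth of leaves and petioles, stood at 15.5, 6.66 and 2.42 CPM at 0h and at 1.25, 2.61 and 3.17 CPM at 1h, where it was called lower although the groups overlapped. It then stood at 186, 215 and 303 CPM at 2h and at 391, 303 and 409 CPM at 4h, and it held 407, 287 and 406 CPM at 12h. Every library from 2h to 12h was above every library at 0h. The rise was 4.83 ± 0.45 on the log2 scale at 2h (adjusted p = 6.14e-14) and 5.48 ± 0.47 at 4h (adjusted p = 4.68e-15). Without WT 0h replicate 1 these values were 5.70 and 6.35. At 5D the level was 2.67, 5.5 and 2.41 CPM.

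EXPA16 (AT3G55500) was high for a shorter time. It stood at 15.9, 14.1 and 19.6 CPM at 0h, at 138, 145 and 129 CPM at 2h and at 0.597, 0.769 and 0.781 CPM at 5D. The 2h libraries were the highest and the 5D libraries the lowest, with no overlap with 0h (3.06 ± 0.37 at 2h, adjusted p = 1.32e-10; −4.51 ± 0.44 at 5D, adjusted p = 6.81e-13). EXPA3 (AT2G37640) showed the same order of groups at a lower level, with 2.52, 2.48 and 4.13 CPM at 0h, 14.2, 20.4 and 29.3 CPM at 2h, and 0.25, 0.21 and 0.326 CPM at 5D (2.80 ± 0.30, adjusted p = 2.36e-12, and −3.53 ± 0.37, adjusted p = 6.36e-12). EXPA13 rose from a mean of 7.98 to 16.4 CPM at 2h, and EXPA9, which was lower at 1h, reached 18.6 CPM at 12h from 7.48 CPM at 0h (1.32 ± 0.19, adjusted p = 3.38e-08).

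XTH19 (AT4G30290), a member of the tissue rejoining pair, reached its highest level later than its neighbour XTH18 first did. It stood at 1.33, 0.197 and 0.197 CPM at 0h, at 2.79, 2.65 and 1.98 CPM at 1h, at 61.5, 53.9 and 42.1 CPM at 6h and at 31.1, 26.7 and 37.1 CPM at 1D. All libraries after the cut lay above all at 0h at these times. The rise at 6h was 6.45 ± 0.56 on the log2 scale (adjusted p = 2.44e-14), and 8.04 without WT 0h replicate 1, whose level was the highest of its group.

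**Figure D2:**
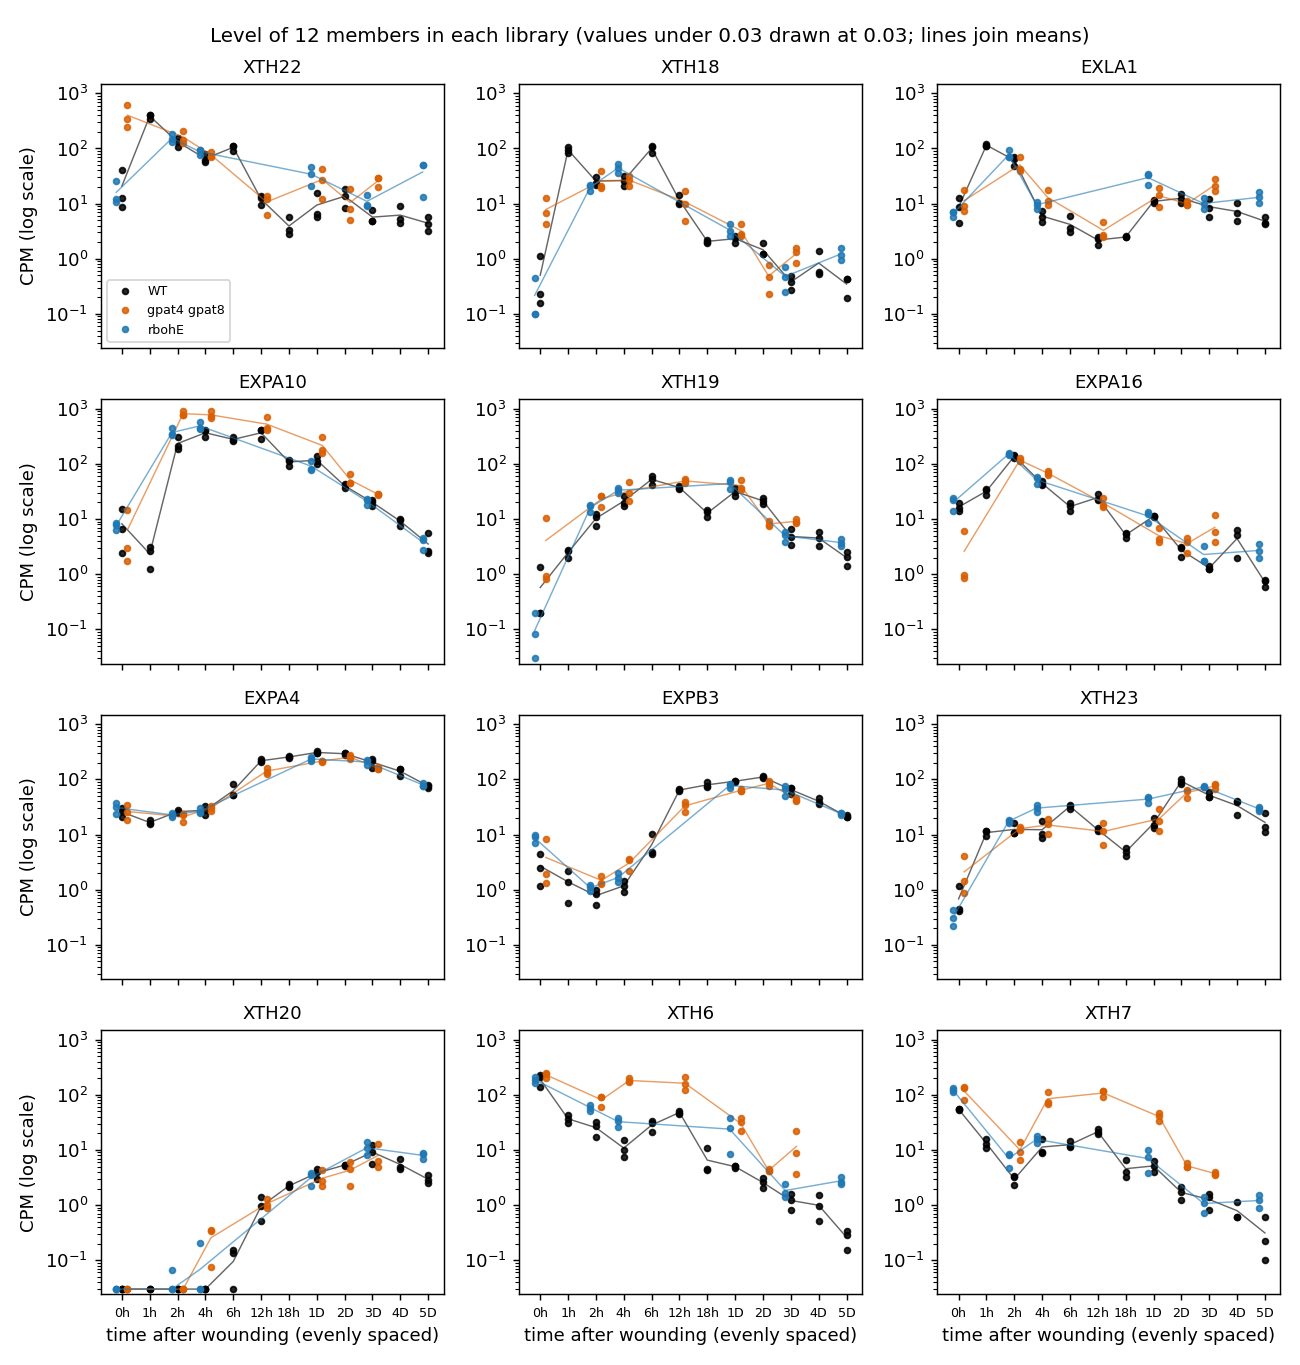
CPM of 12 members in each library (vertical axis, log scale; values under 0.03 drawn at 0.03) against time after wounding (horizontal axis, evenly spaced), with points for the 3 libraries of a group and lines joining means for WT, gpat4 gpat8 and rbohE labels. XTH22, XTH18 and EXLA1 are high at 1h, EXPA10 and EXPA16 from 2h, EXPA4 and EXPB3 from 12h after a smaller rise at 6h, XTH23 and XTH20 at 2D to 3D, and XTH6 and XTH7 decline over the course.

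From 12h another set was high, made up of widely expressed alpha-expansins and a beta-expansin. Smaller rises came before it: EXPA4 (mean of 62.4 CPM) and EXPB3 (mean of 6.51 CPM) were first called higher at 6h, and EXPA1 (mean of 59.0 CPM) was called higher at 4h and not at 6h. EXPA4 (AT2G39700) stood at 29.7, 21 and 26.2 CPM at 0h, at 230, 206 and 216 CPM at 12h and at 325, 297 and 302 CPM at 1D, a rise of 3.59 ± 0.18 on the log2 scale (adjusted p = 4.50e-24). EXPA1 (AT1G69530), an alpha-expansin known from guard cells and growing roots, stood at 25.4, 18.6 and 34.4 CPM at 0h, at 215, 174 and 212 CPM at 12h and at 334, 299 and 301 CPM at 2D (3.57 ± 0.23, adjusted p = 2.28e-19). Both groups of later libraries lay far above 0h without overlap. EXPB3 (AT4G28250) first dipped, from 2.47, 1.14 and 4.39 CPM at 0h to 0.52, 0.978 and 0.843 CPM at 2h, and then stood at 67, 62.4 and 63 CPM at 12h and 108, 114 and 110 CPM at 2D (5.36 ± 0.38 at 2D, adjusted p = 2.12e-17). EXPA6 (AT2G28950) also dipped before it rose, with 18, 20.5 and 47.5 CPM at 0h, 1.71, 3.13 and 3.27 CPM at 2h, and 76.3, 77.6 and 68.7 CPM at 2D (−3.40 ± 0.27, adjusted p = 1.11e-16, and 1.37 ± 0.24, adjusted p = 2.39e-06).

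The XTH genes of the late wave were XTH23, XTH20, XTH31 and XTH30. XTH23 (AT4G25810) stood at 0.443, 0.414 and 1.18 CPM at 0h, at 34.7, 33.6 and 29.1 CPM at 6h, at 4.84, 5.65 and 4.02 CPM at 18h and at 84.1, 91.1 and 102 CPM at 2D, so that its course had an early and a late high point. The rise at 2D was 7.07 ± 0.43 on the log2 scale (adjusted p = 4.12e-20), and 7.74 without WT 0h replicate 3. XTH20 (AT5G48070), the partner of XTH19 in stem rejoining, had 0 counts at 0h, 1h, 2h and 4h. It reached 1.4, 0.961 and 0.505 CPM at 12h and 9.32, 12.4 and 5.63 CPM at 3D, at least 58.7-fold above the floor. XTH31 (AT3G44990), which in biochemical work acts mainly as a hydrolase, fell from 2.79, 5.26 and 5.07 CPM at 0h to 0.43, 0.491 and 0.905 CPM at 4h and then stood at 40, 29.9 and 23 CPM at 3D (−2.83 ± 0.48, adjusted p = 9.74e-07, and 2.83 ± 0.43, adjusted p = 1.61e-07). XTH30 rose at 3D from 5.23 to 13.9 CPM (1.41 ± 0.18, adjusted p = 9.77e-10). At 2D to 4D all 4 markers of dividing cells were also called higher, and their summed level was 23.5 to 29.5 CPM at 2D against 1.37 to 2.06 CPM at 0h. Of these 4 markers 3 were called higher at 1h too (3.45 to 4.01 CPM), and 3 at 5D (4.27 to 4.46 CPM). The part of dividing cells in the late wave was not tested. In whole leaves, more cells of a type and more RNA per cell cannot be told apart.

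The falling members included some of the most abundant members at 0h. XTH6 (AT5G65730) stood at 207, 229 and 136 CPM at 0h, at 10.1, 7.35 and 15.1 CPM at 4h, at 45.2, 47.5 and 51 CPM at 12h and at 0.289, 0.154 and 0.341 CPM at 5D. No library at these later times reached the 0h range, and the 12h libraries lay between 4h and 0h. The fall at 5D was −9.51 ± 0.58 on the log2 scale (adjusted p = 4.13e-20). XTH7 (AT4G37800) was also lowest at 5D, but its early low point came at 2h. It stood at 56.1, 52.1 and 56 CPM at 0h, at 2.27, 3.3 and 3.31 CPM at 2h, at 8.92, 9.32 and 15.7 CPM at 4h, at 19.8, 23.6 and 20.9 CPM at 12h, and at 0.616, 0.224 and 0.0994 CPM at 5D. Its change at 5D was −7.55 ± 0.42 (adjusted p = 8.01e-22), and −8.38 without WT 5D replicate 1. Of the 4 mesophyll markers 2 were called lower at 4h, with summed levels of 1013 to 1191 CPM against 3436 to 5011 CPM at 0h. At 1h 2 were called higher and 0 lower (4070 to 4698 CPM), and at 5D 0 were called higher and 1 lower (1668 to 2053 CPM). At 4h 2 of the 3 epidermis markers were also called lower (summed levels of 61.5 to 64.6 CPM against 122 to 142 CPM at 0h). So was 1 of the 4 vascular markers (213 to 259 CPM against 437 to 442 CPM), while 1 of the 3 guard cell markers was called higher. The part of these cell types in the falls of XTH6 and XTH7 was not tested.

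XTH25 and XTH4 fell early with different later courses. XTH25 (AT5G57550) stood at 16.7, 19.6 and 6.3 CPM at 0h, at 0.843, 0.829 and 0.671 CPM at 4h, at 8.48, 12 and 7.43 CPM at 12h, where it overlapped 0h, and at 0.152, 0 and 0.0901 CPM at 2D. The change at 2D was −7.39 ± 0.85 on the log2 scale (adjusted p = 1.13e-10), and −8.12 without WT 2D replicate 1. XTH4 (AT2G06850), known from wood formation, stood at 29.6, 32.3 and 48.3 CPM at 0h, at 1.93, 1.46 and 2.45 CPM at 4h and at 70, 61.8 and 55.8 CPM at 2D, the last of which was above all 0h libraries but was not called. Its fall at 4h was −4.24 ± 0.41 (adjusted p = 3.27e-13). XTH9, a relative of XTH4 that is also known from wood formation, was lower at 4h as well, at 0.982 CPM against 15.6 CPM at 0h (−3.99 ± 0.34, adjusted p = 2.28e-15).

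Abundant members also fell for shorter times or later. XTH28 (AT1G14720) stood at 64.6, 65.6 and 68.9 CPM at 0h and at 11.7, 16.6 and 18.4 CPM at 2h (−2.09 ± 0.12, adjusted p = 8.83e-22), and it was called lower at 1h and 2h alone, with means between 36.2 and 78.9 CPM from 4h on. EXLB1 (AT4G17030) stood at 63.7, 62.9 and 58.7 CPM at 0h and at 10.4, 8.59 and 14.6 CPM at 2h (−2.46 ± 0.16, adjusted p = 2.26e-20), and at 5D its mean was 13.8 CPM (−2.16 ± 0.16, adjusted p = 1.39e-17). XTH27 (AT2G01850), known from the walls of leaf veins, kept its level for the first hours and then fell, from 211, 204 and 183 CPM at 0h to 57.3, 48 and 58.8 CPM at 1D (−1.86 ± 0.13, adjusted p = 1.01e-17).

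Several low members fell to or near 0. XTH33 (AT1G10550), whose product is anchored in the plasma membrane, stood at 0.779, 1.01 and 1.09 CPM at 0h and had 0 counts in all 3 libraries at 12h, at least 6.48-fold lower. EXPA8 (AT2G40610) stood at 0.336, 1.4 and 10.7 CPM at 0h and had 0 counts in all 3 libraries at 2h, at least 24.4-fold lower against the mean of 0h, a mean that rests mainly on WT 0h replicate 3. The fitted log2 fold change was −10.95 with that library and −8.65 without it, both dependent on the prior count. EXPA11 (AT1G20190) stood at 0.87, 0.927 and 2.04 CPM at 0h and at 0.0496, 0 and 0 CPM at 4h (adjusted p = 8.92e-07), and its fitted change of −6.16 ± 1.04 became −9.23 without WT 4h replicate 1, which held all the counts of its group. XTH16 fell from 3.2 to 0.254 CPM at 5D (−3.61 ± 0.45, adjusted p = 1.12e-09). EXPB1 had 0 counts at 5D, at least 4.35-fold lower against the mean of 0h, where its libraries spread widely (0.66 ± 0.576 CPM, mean ± SD).

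Of the members not yet given, XTH5 was called at 1h alone (lower, −1.31 ± 0.16, adjusted p = 2.08e-10). XTH8 was higher at 2h (1.23 ± 0.35, adjusted p = 0.00172; 0.89 and not called without WT 2h replicate 3) and lower at 5D (−2.67 ± 0.41, adjusted p = 1.59e-07), and XTH32, which like XTH31 is a hydrolase in biochemical work, was lower at 4h (−1.14 ± 0.33, adjusted p = 0.00253) and higher at 1D (1.12 ± 0.32, adjusted p = 0.00268). The XTH32 call at 4h was lost without WT 0h replicate 3 (−0.78) or WT 4h replicate 1 (−0.90), and that at 1D without WT 0h replicate 2 (0.87). EXPA14, EXPA15, EXPA17 and EXPA20 never exceeded a mean of 3.09 CPM in WT. The 6 untested genes were XTH15, XTH17, XTH21, XTH26, EXPA2 and EXPA18. Their highest wild type mean was 0.106 CPM, in EXPA2 at 1h, and EXPA18, known with XTH26 from root hairs, had 0 counts in all 75 libraries. XTH15, EXPA2, EXPA18 and EXPA20 overlap genes on the other strand.

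Neighbouring copies on the chromosomes had unlike courses at some times and shared calls at others. XTH24 (chromosome 4, 14819192 to 14820595), XTH18 (14825757 to 14827211) and XTH19 (14828712 to 14830224) lie on the minus strand with gaps of 5161 and 1500 bases and no gene between them. XTH24 was the most abundant member at 0h, with 205, 214 and 287 CPM, and it changed least of the 3: it stood at 373, 325 and 368 CPM at 1h, below the fold needed for a call, and at 126, 101 and 81.5 CPM at 1D (−1.20 ± 0.17 on the log2 scale, adjusted p = 4.09e-08). At 1h XTH18 was near its highest level while XTH19 stood at a mean of 2.47 CPM, and at 1D XTH19 stood at 31.6 CPM while XTH18 was back at 2.32 CPM. Both XTH18 and XTH19 had their highest wild type mean at 6h, and both were called higher at every time from 1h to 2D. XTH25 (chromosome 5, 23304782 to 23306440) and XTH22 (23307006 to 23308680) are 565 bases apart on the minus strand. At 1h XTH22 was called higher and XTH25 was not called, and at 2h XTH22 was called higher and XTH25 lower. At 18h, 1D, 3D, 4D and 5D both XTH22 and XTH25 were called lower. EXLA3 (chromosome 3, 16892702 to 16894153) and EXLA1 (16896166 to 16897308) lie 2012 bases apart on the plus strand with 1 gene between them, and both were called higher at 1h and 2h. At 12h and 18h EXLA3 was called higher and EXLA1 lower. The EXLA3 means at these 2 times did not exceed 0.156 CPM, the floor of 3 fragments in the 0h libraries. XTH14, whose locus is 363 bases from XTH23, had counts at 2h in 2 of 3 libraries (0.368 and 0.115 CPM) and 0 counts at 0h.

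**Figure D3:**
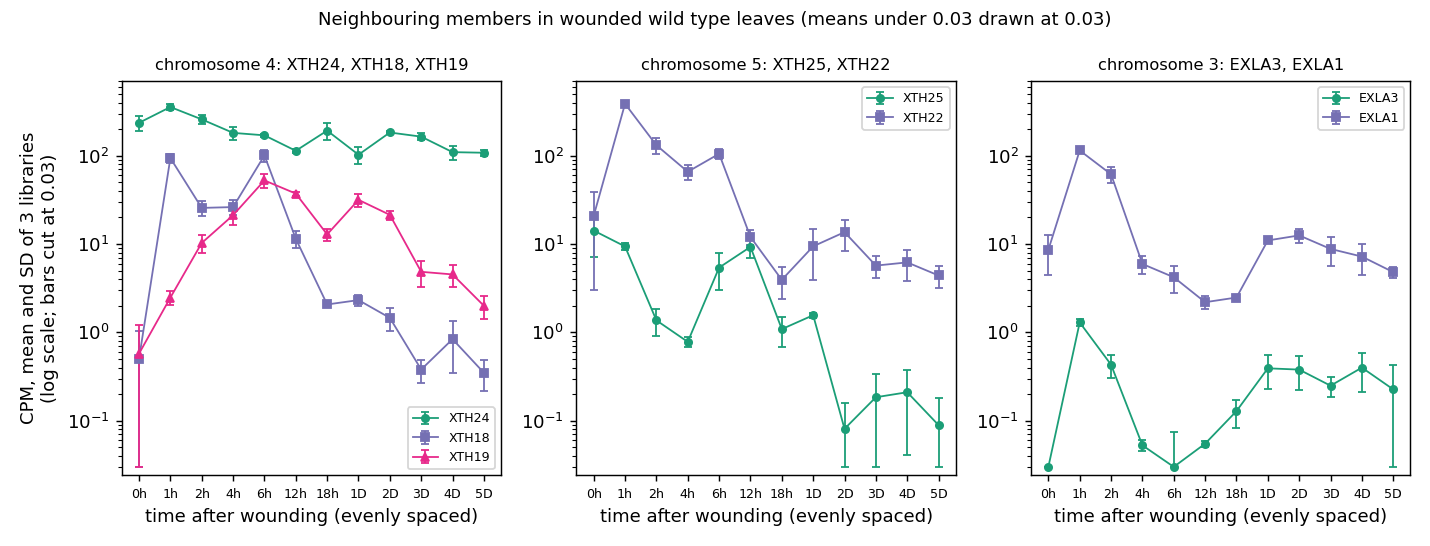
Mean CPM with SD of 3 WT libraries (vertical axis, log scale; means under 0.03 drawn at 0.03) for neighbouring genes against time after wounding (horizontal axis, evenly spaced). XTH24 stays between 103 and 355 CPM. XTH18 and XTH19 rise from under 1 CPM, stand apart at 1h and are both highest at 6h. XTH25 and XTH22 separate at 1h and 2h, and EXLA3 and EXLA1 share their high point at 1h.

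The libraries labelled rbohE form a wound course of their own that shares no library with WT. Against their own 0h, 13 tested members were called higher and 17 lower at 2h, 10 and 17 at 4h, 14 and 13 at 1D, 9 and 16 at 3D, and 10 and 16 at 5D, where 45.3%, 37.1%, 24.5%, 25.2% and 24.5% of all tested genes were called. Of the 14 members called higher in WT at 2h, 11 were also called higher in the libraries labelled rbohE (78.6% of the WT list and 84.6% of the rbohE list), and of the 15 called lower, 14 were (93.3% and 82.4%). At 4h the overlaps were 7 of 10 higher members (70.0% of each list) and 11 of 13 lower members (84.6% and 64.7%). The smallest overlap was at 1D, with 5 of 10 lower members (50% and 38.5%), beside 10 of 11 higher members (90.9% and 71.4%). At 3D these overlaps were 8 of 12 higher members (66.7% and 88.9%) and 13 of 15 lower members (86.7% and 81.2%), and at 5D they were 6 of 7 (85.7% and 60%) and 14 of 20 (70.0% and 87.5%). The same overlaps were not counted over all tested genes, so these shares cannot be called particular to the families. EXPA10 stood at 8.62, 7.95 and 6.4 CPM at 0h and at 585, 453 and 431 CPM at 4h in the libraries labelled rbohE (6.00 ± 0.48, adjusted p = 1.99e-16). XTH23 stood at 0.42, 0.216 and 0.301 CPM at 0h and at 71.4, 71.9 and 76.1 CPM at 3D (7.85 ± 0.46, adjusted p = 8.95e-21). XTH20 had 0 counts at 0h and stood at 14.1, 8.04 and 10.8 CPM at 3D, at least 83.2-fold above the floor. Members called lower in WT and higher in the libraries labelled rbohE were XTH22 and XTH33 at 1D, and XTH22, XTH24 and XTH33 at 5D. Under the rbohE label XTH33 had 0 counts at 0h and a mean of 0.139 CPM at 1D, at least 1.05-fold above the floor. Its mean at 5D did not exceed that floor of 0.132 CPM. Both XTH24 and XTH33 were already called lower than WT at 0h.

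At 0h the libraries labelled rbohE already differed from WT in 18 tested members, 14 higher and 4 lower, where 11.7% of all tested genes were called and 5.47% were called higher. The median log2 difference of the tested members was 0.43, beside 0 for all tested genes. EXPA8 stood at 77.8, 80.1 and 44.9 CPM against 0.336, 1.4 and 10.7 CPM in WT, with no overlap (4.02 ± 0.91, adjusted p = 3.52e-04; 6.32 without WT 0h replicate 3). EXPA11 stood at 16.4, 15.8 and 13 CPM against 0.87, 0.927 and 2.04 CPM (3.55 ± 0.63, adjusted p = 7.72e-06). The lower members were XTH19, XTH24, XTH25 and XTH33. XTH24 stood at 55.6, 49.5 and 52 CPM against 205, 214 and 287 CPM (−2.17 ± 0.18, adjusted p = 1.16e-14), and XTH33 had 0 counts against a mean of 0.957 CPM, at least 7.26-fold lower. EXPA6 (104 against 28.7 CPM, 1.86 ± 0.24, adjusted p = 9.16e-09) and EXPA1 (91.7 against 26.2 CPM, 1.81 ± 0.22, adjusted p = 1.17e-09) were also higher. Of the 4 mesophyll markers, 3 were called higher in the same comparison, with summed levels of 7904 to 8768 CPM against 3436 to 5011 CPM. Of the 4 markers of dividing cells 3 were called higher, with summed levels of 4.94 to 5.58 CPM against 1.37 to 2.06 CPM. Of the 4 vascular markers 2 were called higher, while their summed levels of 394 to 465 CPM took in the WT range of 437 to 442 CPM. Of the 4 clock genes 0 were called higher and 2 lower, CCA1 and LHY, while their summed levels were 303 to 325 CPM against 215 to 236 CPM. The part of cell makeup or time of day in these differences was not tested.

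After the cut, the differences between libraries labelled rbohE and WT were fewer, and every called member was higher. There were 4 such members after 2h (1.78% of all tested genes called), 6 after 4h (2.19%) and 7 on day 1 (0.831%). Day 3 had 0 (0.498%) and day 5 had 11 (1.64%, with 1.33% called higher). Leaving out 1 library gave 1 to 4 members at 2h (1 without WT 2h replicate 1), 4 to 7 at 1D (4 without rbohE replicate 3 or WT replicate 2) and 6 to 11 at 5D (6 without WT 5D replicate 2). At 3D, 6 tested members had an unadjusted p under 0.05, and DESeq2 called 1. XTH6 was called higher at 2h, 4h, 1D and 5D, and it stood at 2.57, 2.44 and 3.26 CPM at 5D against 0.289, 0.154 and 0.341 CPM in WT (3.40 ± 0.57, adjusted p = 7.28e-05). XTH22 stood at 12.9, 50.4 and 49.2 CPM at 5D against 3.19, 4.35 and 5.66 CPM (3.08 ± 0.51, adjusted p = 5.76e-05), a call lost with only the groups compared in the fit (adjusted p = 0.0642). At 1D XTH23 stood at a mean of 43.9 CPM against 15.9 CPM (1.46 ± 0.32, adjusted p = 0.00285).

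The change from 0h itself differed between the libraries labelled rbohE and WT, by the interaction term of the same fit, for 9 tested members at 2h (3 more positive in rbohE and 6 more negative), 13 at 4h (7 and 6), 18 at 1D (9 and 9), 14 at 3D (4 and 10) and 14 at 5D (10 and 4). Over all tested genes the share was 7.26%, 6.85%, 7.65%, 10.1% and 8.07%. Leaving out rbohE 3D replicate 2 gave 9 members at 3D. The term takes in the 0h difference described above: EXPA11, at 15.1 CPM at 0h under the rbohE label, stood at 0, 0 and 0.242 CPM at 2h, against a WT 0h mean of 1.28 CPM and 0.13, 0.23 and 0.14 CPM at 2h (−4.55 ± 1.21, adjusted p = 0.00466). That value became −9.89 without rbohE 2h replicate 3, which held all the counts of its group.

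The libraries labelled gpat4 gpat8 differed from WT in the most tested members at 4h, whereas over all tested genes the share called was highest at 0h (20.5%). At 4h 21 tested members were called higher and 1 lower, where 19.2% of all tested genes were called and 11.8% were called higher. The median log2 difference of the tested members was 1.19, beside 0 for all tested genes. The WT 4h libraries enter both this comparison and the wound response, so WT 0h values are set beside those of XTH6, which stood at 169, 200 and 177 CPM against 10.1, 7.35 and 15.1 CPM in WT at 4h and 207, 229 and 136 CPM in WT at 0h (4.07 ± 0.41, adjusted p = 3.60e-12). XTH4 stood at 45.1, 47.5 and 30.4 CPM against 1.93, 1.46 and 2.45 CPM (4.39 ± 0.41, adjusted p = 2.79e-13), and XTH7 at 67.7, 111 and 75.4 CPM against a mean of 11.3 CPM (2.91 ± 0.30, adjusted p = 6.85e-12). The groups did not overlap for any of these.

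At 4h EXPA8 stood at 5.05, 19.2 and 6.76 CPM under the gpat4 gpat8 label against 0.116, 0 and 0.156 CPM in WT (6.82 ± 1.21, adjusted p = 5.51e-06). The value was 6.01 without gpat4 gpat8 replicate 2, 6.23 without WT replicate 2 and 7.48 without WT replicate 3. EXPA11 stood at 6.22, 12.5 and 4.37 CPM against 0.0496, 0 and 0 CPM (8.74 ± 0.99, adjusted p = 9.03e-11; 11.77 without WT 4h replicate 1), a size that depends on the prior count. EXLB1 was the lower member, at 13.4 against 28.8 CPM (−1.10 ± 0.15, adjusted p = 1.80e-08). All 4 mesophyll markers were called higher at 4h too, with summed levels of 8175 to 9151 CPM against 1013 to 1191 CPM. Of the 4 markers of dividing cells 3 were called higher (summed levels of 3.89 to 4.37 CPM against 0.844 to 1.58 CPM), and of the 4 vascular markers 3 were (277 to 323 CPM against 213 to 259 CPM). The part of these cell types in the difference was not tested.

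At 2h, 10 tested members were called higher and 0 lower, where 6.85% of all tested genes were called and 4.58% were called higher; without gpat4 gpat8 2h replicate 2 the count was 6. EXPA10 stood at 759, 913 and 779 CPM in the libraries labelled gpat4 gpat8 against 186, 215 and 303 CPM in WT (1.80 ± 0.39, adjusted p = 3.03e-04). XTH4 stood at 114, 95.5 and 43.7 CPM against 6.75, 7.79 and 11.9 CPM (3.25 ± 0.38, adjusted p = 2.26e-09). At 2h 3 of the 4 mesophyll markers were called higher (summed levels of 3870 to 9592 CPM against 2321 to 2828 CPM), as were 2 of the 4 markers of dividing cells (2.24 to 4.54 CPM against 1.57 to 1.67 CPM) and 1 of the 4 vascular markers (348 to 495 CPM against 414 to 503 CPM). Their part in the 2h difference was not tested. At 2D the calls were 2 higher (XTH7 and XTH25) and 2 lower (XTH18 and XTH19), where 2.07% of all tested genes were called, and leaving out any 1 library brought the count to 1 or 2. At 3D, 11 members were called higher and 0 lower, where 3.16% were called and 2.52% called higher, and the number was 7 when gpat4 gpat8 3D replicate 3 was left out. XTH6 was among them, at 8.69, 3.67 and 22.5 CPM against 1.26, 1.58 and 0.799 CPM (3.24 ± 0.44, adjusted p = 2.54e-07; 2.32 without gpat4 gpat8 3D replicate 3).

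**Figure D4:**
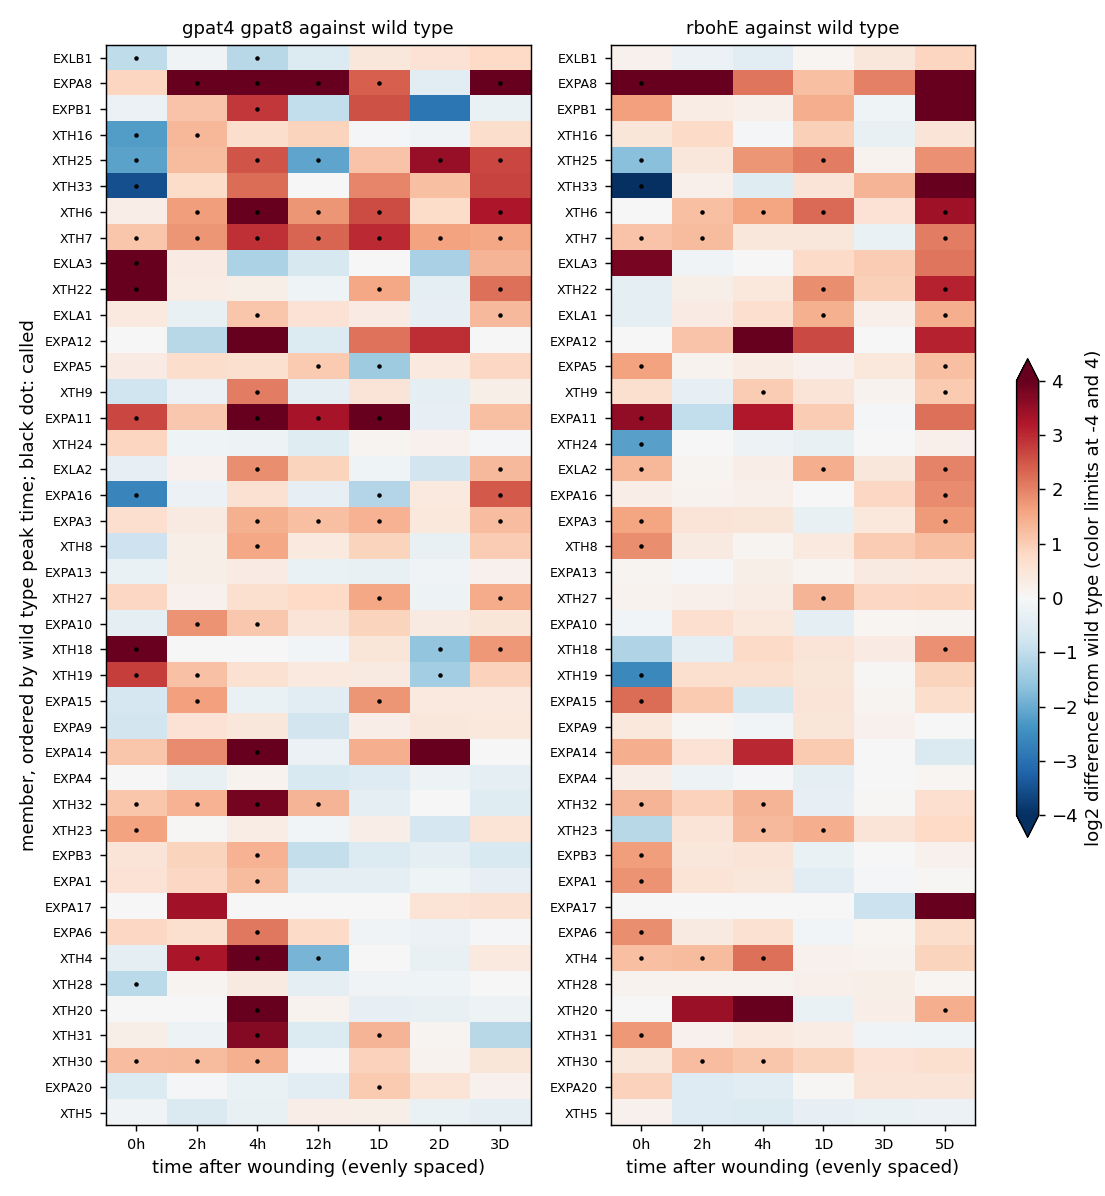
Log2 difference from WT of the 42 tested members (vertical axis, ordered as by WT peak time) at each shared time (horizontal axes, evenly spaced) for the libraries labelled gpat4 gpat8 (left) and rbohE (right), with a black dot where a member was called. The 4h column on the left holds 21 higher and 1 lower call, and the 3D column on the right holds none.

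At the times of the libraries with an M, the libraries labelled gpat4 gpat8 differed from WT in 9 members called higher and 6 lower at 0h, 7 and 2 at 12h, and 10 and 2 at 1D, where 20.5%, 12.7% and 11.4% of all tested genes were called. XTH22 stood at 344, 240 and 621 CPM at 0h against 12.7, 8.52 and 41.2 CPM in WT at 0h and 410, 402 and 349 CPM in WT at 1h (4.27 ± 0.52, adjusted p = 6.34e-10; 5.24 without WT 0h replicate 3). XTH18 was likewise higher, at 4.22, 6.78 and 12.5 CPM against 0.229, 0.158 and 1.12 CPM (3.94 ± 0.47, adjusted p = 3.20e-10; 5.30 without WT 0h replicate 3). At 1D XTH7 stood at a mean of 40.4 CPM against 5.14 CPM (2.97 ± 0.31, adjusted p = 1.51e-11). Of the 4 clock genes, 2 were called higher and 2 lower at 0h in the same libraries, with summed levels of 501 to 618 CPM against 215 to 236 CPM, and 2 of the 4 mesophyll markers were called higher, with summed levels of 6867 to 8705 CPM against 3436 to 5011 CPM. At 12h 2 of the 4 clock genes were called higher and 1 lower (662 to 784 CPM against 303 to 313 CPM). At that time 2 of the 4 mesophyll markers were called higher and 0 lower (4911 to 5646 CPM against 2373 to 2517 CPM), and 0 of the 4 markers of dividing cells were called. At 1D all 4 mesophyll markers (5062 to 5712 CPM against 1720 to 1918 CPM) and all 4 markers of dividing cells (6.59 to 7.82 CPM against 2.08 to 3.45 CPM) were called higher. The part of these markers in the differences was not tested.

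Within the series with an M, 15 members were called higher and 6 lower from 0h to 12h and 13 and 7 from 0h to 1D, where 16.5% and 20.3% of all tested genes were called. Within the other libraries labelled gpat4 gpat8, taken from 2h, 12 were called higher and 6 lower at 4h, 11 and 18 at 2D and 12 and 19 at 3D, where 22.9%, 35.7% and 35.8% were called. The change differed from that of WT for 14 members from 0h to 12h (5 more positive and 9 more negative), 19 from 0h to 1D (12 and 7), 12 from 2h to 4h (11 and 1), 5 from 2h to 2D (0 and 5) and 7 from 2h to 3D (4 and 3). The share of all tested genes was 12.5%, 16.5%, 8.86%, 7.32% and 4.63%. Leaving out WT 2h replicate 1 gave 2 members from 2h to 2D, and leaving out gpat4 gpat8 2h replicate 2 or 2D replicate 3 gave 3. XTH22 fell from 344, 240 and 621 CPM to 6.34, 13.6 and 12.2 CPM between 0h and 12h under the gpat4 gpat8 label, whereas WT went from 12.7, 8.52 and 41.2 to 13.9, 9.58 and 12.6 CPM (difference of changes −4.43 ± 0.68, adjusted p = 8.59e-07; −5.40 without WT 0h replicate 3).

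Genes that make or trim xyloglucan were called in both directions. Of 10 tested, 4 were called higher and 2 lower at 1h in WT, where 33.6% of all tested genes were called. At 2h the counts were 3 and 2, where 38.2% were called, and at 5D they were 1 and 2, where 19.2% were called. MUR3, a galactosyltransferase of xyloglucan side chains, stood at 46.1, 43.7 and 42.1 CPM at 0h and at 338, 355 and 352 CPM at 1h (2.98 ± 0.11, adjusted p = 3.56e-31). XXT1, a xylosyltransferase that starts the side chains, stood at 16, 16.8 and 17.8 CPM at 0h and at 145, 145 and 137 CPM at 1h (3.08 ± 0.21, adjusted p = 1.11e-18).

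Among 12 tested regulators and partners, 3 were called higher and 5 lower at 1h, 5 and 3 at 2h, and 1 and 2 at 5D, beside the same shares of all tested genes. The count at 5D, 25.0% of the list, was near the share of all genes. ANAC071 had 0 counts at 0h and 1h, stood at 0.173, 0.441 and 0.241 CPM at 2h and at 4.15, 5.76 and 4.72 CPM at 3D. XTH20 was highest at 3D, whereas XTH19 was highest at 6h and was already called higher at 1h. A link of ANAC071 to either gene was not tested. ANAC096, a close relative of ANAC071, stood at 0.321, 0.749 and 0.79 CPM at 0h and at 11.6, 17.7 and 14.5 CPM at 2h (4.57 ± 0.26, adjusted p = 7.51e-23). Of the XTH genes outside the 48, 4 of 9 were tested. XTH29 rose from 1.08, 0.729 and 0.543 CPM at 0h to 3.59, 3.18 and 2.51 CPM at 2h (1.97 ± 0.28, adjusted p = 1.49e-08). XTH10 was called lower at 1h (−2.10 ± 0.75, adjusted p = 0.0118), with overlapping groups, and the call was lost without WT 0h replicate 1 (adjusted p = 0.513). Of 11 further expansin genes, 1 was tested, EXPA21, which was called lower at 1h and 4h.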

How the data were processed

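Estimated counts of 32833 genes in 75 libraries, made with StringTie per the file headers, were deposited by the authors as a table. The submitters' processing notes name TAIR10, Trimmomatic 0.39, HISAT2 2.2.1, StringTie 1.3.4 and edgeR 3.19, and the labels name a stranded mRNA kit. Low values were spaced by 2.63 counts, so a fragment was worth about that many counts.

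The deposited counts were scaled by TMM, filtered by filterByExpr (minimum count 10, minimum total 15; 23475 genes left) and fitted with edgeR 4.0.16 in R 4.3.3 (quasi-likelihood, robust, 1 coefficient per group, 44 contrasts, Benjamini-Hochberg adjustment). SEs were derived from the fold change and F statistic, and fitted folds used a prior count of 0.125. Fold bounds used a floor of 3 fragments (7.89 counts) per library. Intervals, floors and tests cover counting error and library spread only. The procedure was tested on simulated data.

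Fully described members were those called with the largest changes and a mean of at least 50 counts, up to 10 XTH, 8 EXPA and 4 others in WT, 5 per mutant label and 2 per pathway list; other members are given by rule of tandem position or for completeness. Members and lists were chosen with earlier results of these data known. Gene positions and promoter sequences came from RefSeq TAIR10.1. Alternatives were RLE scaling, DESeq2 1.42.0, no filter, only the groups compared, a replicate block, counts divided by the spacing, and each library left out.

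Replicates had Pearson correlations between 0.972 and 0.988, and no pair agreed within sampling noise (chi-square per degree of freedom at least 4.77). Protein sequences were not used here.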

Additional observations from a re-analysis of the deposited data

Results flagged for a closer look

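The change after wounding differed between genotype labels for several members, by a test of the difference itself in edgeR (adjusted p under 0.05 and a log2 difference of at least 1). Each value takes in any difference between the labels at the starting time. Between the libraries labelled rbohE and WT the change from 0h differed for 9 members by 2h, for 13 by 4h, for 18 by day 1, for 14 by day 3 and for 14 by day 5. Between the libraries labelled gpat4 gpat8 and WT it differed for 14 members from 0h to 12h, 19 from 0h to 1D, 12 from 2h to 4h, 5 from 2h to 2D and 7 from 2h to 3D. In the same order, the share of all tested genes was 7.26%, 6.85%, 7.65%, 10.1% and 8.07% for rbohE. For gpat4 gpat8 it was 12.5%, 16.5%, 8.86%, 7.32% and 4.63%.

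For rbohE the members described are those among the 2 greatest called differences at each time with a mean of at least 50 counts in a group, XTH19, XTH25 and EXPA11. Below that minimum XTH33, with 0 counts in all rbohE libraries at 0h, had fitted values between 8.34 and 14.29, which depend on the prior count. XTH19 rose more from its own 0h under the rbohE label, by 3.25 ± 0.96 on the log2 scale at 2h (adjusted p = 0.0111), 3.24 ± 0.95 at 4h (adjusted p = 0.00999), 3.07 ± 0.95 at 1D (adjusted p = 0.0153), 2.63 ± 0.98 at 3D (adjusted p = 0.0355) and 3.49 ± 0.97 at 5D (adjusted p = 0.00607). All 5 values rest on 0h levels of 0.202, 0 and 0.0835 CPM under the rbohE label and 1.33, 0.197 and 0.197 CPM in WT. Without WT 0h replicate 1 they lay between 1.04 and 1.90, with adjusted p between 0.284 and 0.571, and without rbohE 0h replicate 1 they lay between 3.81 and 4.67. Leaving out rbohE 0h replicate 2 also ended the calls at 2h, 1D and 3D (adjusted p = 0.0501, 0.0665 and 0.126). The 3D call was lost as well without rbohE 0h replicate 3, either of rbohE 3D replicates 1 and 2 or either of WT 3D replicates 1 and 2 (adjusted p between 0.0511 and 0.0787). XTH25 differed by 3.45 ± 0.86 at 4h (adjusted p = 0.00228), 3.72 ± 0.84 at 1D (adjusted p = 0.000825; 3.08 without rbohE 1D replicate 3) and 3.52 ± 1.06 at 5D (adjusted p = 0.0114). At 5D the value was 4.49 without WT 5D replicate 2, and without rbohE 5D replicate 2 it was 3.09 and no longer called (adjusted p = 0.0517). EXPA11 differed by −4.55 ± 1.21 at 2h (adjusted p = 0.00466; −9.89 without rbohE 2h replicate 3) and by −3.59 ± 0.99 at 3D (adjusted p = 0.00416). At 0h itself XTH19 and XTH25 were called lower and EXPA11 higher under the rbohE label than in WT. Between the labels XTH25 was called at 1D and not at 4h or 5D. EXPA11 was not called at 2h, and at 3D 0 tested members were called between the labels.

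For the libraries labelled gpat4 gpat8, differences from 0h cannot be told apart from the library series with an M. They were −4.43 ± 0.68 for XTH22 to 12h (adjusted p = 8.59e-07; −5.40 without WT 0h replicate 3), −3.44 ± 0.62 for XTH18 to 1D (adjusted p = 8.34e-06; −4.81 without WT 0h replicate 3) and 3.30 ± 0.84 for XTH25 to 1D (adjusted p = 0.00131). EXPA8 differed by 4.34 ± 1.33 to 12h (adjusted p = 0.00968), by 5.09 without gpat4 gpat8 0h replicate 3, and by 2.04 with no call without WT 0h replicate 3 (adjusted p = 0.272).

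From 2h to 2D, the mean of XTH4 went from 84.2 to 50.9 CPM under the gpat4 gpat8 label and from 8.83 to 62.5 CPM in WT. Its change from 2h differed from that of WT by −3.55 ± 0.50 to 2D (adjusted p = 9.04e-07) and −2.85 ± 0.50 to 3D (adjusted p = 6.98e-05), from 2h levels of 114, 95.5 and 43.7 CPM against 6.75, 7.79 and 11.9 CPM in WT. XTH19 differed by −2.55 ± 0.60 to 2D (adjusted p = 0.00158), EXPA16 by 2.68 ± 0.52 to 3D (adjusted p = 0.000293) and XTH31 by 3.86 ± 0.68 to 4h (adjusted p = 1.26e-05). EXPA11 differed by 7.66 ± 1.44 to 4h (adjusted p = 3.57e-05), a fitted value that was 10.68 without WT 4h replicate 1, 8.25 without gpat4 gpat8 2h replicate 2 and 7.07 without gpat4 gpat8 2h replicate 3.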

How the results depend on the processing

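Under RLE scaling all 44 counts of called members stayed within 1.5 times, and of the 58 named fold changes none reversed under any alternative. DESeq2 moved the rbohE count at 3D from 0 to 1. Without the filter the gpat4 gpat8 count at 2D was 2 in place of 4. With only the groups compared in the fit, that count was 2, the rbohE count at 1D was 3 in place of 7, the gpat4 gpat8 difference of changes to 12h was 8 in place of 14, and that from 2h to 2D was 8 in place of 5. The same setting ended 8 named calls, among them XTH22 in rbohE at 5D (adjusted p = 0.0642), EXPA8 in the gpat4 gpat8 change to 12h (adjusted p = 0.0969) and the 5 rbohE values of XTH19 (adjusted p between 0.0510 and 0.132). Dividing counts by the spacing ended the XTH19 call at 3D (adjusted p = 0.0858). With each library left out, 305 of 324 counts stayed within 1.5 times. The gpat4 gpat8 counts ran from 6 to 10 at 2h, 1 to 2 at 2D and 7 to 11 at 3D, and their difference of changes from 2h to 2D from 2 to 7. The rbohE counts ran from 1 to 4 at 2h, 4 to 7 at 1D, 0 to 1 at 3D and 6 to 11 at 5D, and their difference of changes to 3D from 9 to 14. The cause was not tested for any of these. Same-numbered libraries did not deviate together (correlations from −0.192 to 0.164, with 0 of 34 comparisons above 0.1 in all 3 pairs), and with the replicate number as a block 0 counts moved by over 1.5 times, the count at 1h being 24 with and without the block. Depth limits members near the floor, where 1 library can hold all the counts of a group.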
